A study of Mus musculus with 6 samples.

Results

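The genes described here are 52 genes of the cell cycle and of DNA replication, out of 54532 genes in the deposited count table. They were given as a list of gene symbols, matched to the authors' gene annotation by name, and joined to the counts by gene ID. By role they fall into 14 genes of the passage from G1 to S, 15 genes of DNA replication and 23 genes of mitosis. They were measured by RNA-seq in wild-type mouse bone marrow-derived mesenchymal stem cells (BMSCs), plastic-adherent cells of the marrow stroma with the capacity to become osteoblasts, taken at 70% confluence as primary cells and kept for 7 days in osteogenic medium. All cultures of both groups received dexamethasone, ascorbic acid at 50 μg/mL and β-glycerophosphate at 10 mM, and the sample labels give dexamethasone as 100 nM whereas the study's methods give another concentration. The Ni group (3 libraries) had 0.1 μM NiCl2 added, and the control group (3 libraries) had vehicle. The labels describe the 3 libraries of a group as independent biological replicates without naming the animals, whose age is not given in the sources used here. The comparison of Ni with control asks how a low dose of nickel changes the transcriptome of mineralizing BMSCs.

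A cell enters division when D-type cyclins with Cdk4 or Cdk6, and then E-type cyclins with Cdk2, phosphorylate the retinoblastoma protein and its relatives and free the E2F transcription factors. E2F factors switch on the genes of DNA synthesis, among them the Mcm helicase, Pcna and the enzymes that make deoxynucleotides. Later, a program that uses Foxm1 and B-Myb switches on the cyclins, kinases, motors and spindle proteins of mitosis. Osteoblast precursors divide in early culture and leave the cycle as they mature, and CDK inhibitors hold cells out of it.

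The promoters of these genes carry short elements that mark the classes, and these were read from RefSeq windows of 300 bases (build GRCm38.p6), which end 50 bases after the start of a gene. Windows were matched for 39 of the 52 genes. Not matched were Ccnd1, Ccnd2, Ccne2, Rb1, Mcm4, Gins2, Pole, Ccna2, Cdc25c, Aurkb, Kif20a, Tpx2 and Foxm1. The E2F motif was searched as TTTCCCGC, TTTCGCGC, TTTGCCGC or TTTGGCGC, the cell cycle genes homology region (CHR) as TTTGAA and the CCAAT box as CCAAT, each on both strands. The E2F letters stood in 4 of 10 G1 to S windows (40.0%), 6 of 12 replication windows (50.0%) and 1 of 17 mitosis windows (5.88%), against 2.26% of all 32851 windows. The CHR letters stood in 1 of 10 G1 to S windows (10.0%), 1 of 12 replication windows (8.33%) and 12 of 17 mitosis windows (70.6%), against 17.9% of all windows. In the bases before the start alone, 7 of the 17 mitosis windows (41.2%) held them, against 16% of all windows. The CCAAT box was in 40.0% of the G1 to S windows, 75.0% of the replication windows and 88.2% of the mitosis windows, against 37.4% of all windows. All 12 mitosis windows with CHR letters also held a CCAAT box, a pair present in 6.95% of all windows, and before the start alone 7 of the 17 held the pair. A match of letters is a description of the sequence and not a measured binding site.

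The stretches below show an E2F match in capitals in 3 genes of the replication origin and a CHR match in capitals in 4 genes of mitosis, because the levels of these classes are compared later. In Mcm5 and Mcm6 a further E2F match on the other strand overlaps the capitals and is not marked. Each stretch is written 5′ to 3′ on the strand of the gene, so that capitals reading GCGGGAAA or TTCAAA are the motif on the other strand. The E2F stretches are of Mcm5 (helicase subunit, chr8:75109345-75109374, plus strand), Mcm6 (helicase subunit, chr1:128359797-128359826, minus strand) and Cdc6 (loader of the helicase, chr11:98908002-98908031, plus strand). The CHR stretches are of Cdk1 (the mitotic kinase, chr10:69352966-69352995, minus strand), Top2a (topoisomerase that untangles sister chromatids, chr11:99024351-99024380, minus strand), Mki67 (the Ki-67 protein of chromosome surfaces, chr7:135716478-135716507, minus strand) and Kif11 (motor that separates spindle poles, chr19:37376351-37376380, plus strand).
Mcm5: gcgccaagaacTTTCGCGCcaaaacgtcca
Mcm6: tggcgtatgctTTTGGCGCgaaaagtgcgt
Cdc6: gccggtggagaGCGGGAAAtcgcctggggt
Cdk1: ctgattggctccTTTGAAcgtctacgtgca
Top2a: ctattggtccatTTTGAAgattctcccgcc
Mki67: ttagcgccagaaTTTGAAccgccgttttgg
Kif11: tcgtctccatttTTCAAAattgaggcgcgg

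The libraries held from 16101033 to 18642504 counts, of which the 52 genes took between 0.169% (control 2) and 0.254% (Ni 3). All 52 genes passed the filter on low counts. Their smallest count in any library was 23 (Cdc25c) and their largest was 7279 (Ccnd1), and E2f7 and Cdc25c alone fell under 50 counts in a library. Control 3 stood apart from its group: over all genes tested its mean correlation was 0.987 with the Ni libraries and 0.978 with the other controls. Results that rest on it are therefore given also without it, and results that rest on control 2, which was low for these genes, without that library. Both libraries were chosen from these same data, and leaving out the control nearest to Ni favors calls. Fits without them show how far a result rests on a library and are no separate tests. The labelled cell type was present by its markers, and the osteoblast markers were higher in Ni: their summed level ran from 5680 to 11500 CPM (counts scaled to the size of the library) in control and from 14800 to 20400 CPM in Ni. By edgeR, 10 of 10 were higher at an unadjusted p under 0.05, as were 7.59% of all genes. None of them had an adjusted p under 0.05 (lowest 0.212). The summed stromal markers ran from 11900 to 18600 CPM in control and from 23000 to 27900 CPM in Ni, a sum made up mostly of Col1a1, which is also in the osteoblast list, and Col1a2. The other stromal markers did not move as one. Lum had a log2 fold change of 0.95, Dcn of 0.8, Col3a1 of 0.46, Pdgfrb of 0.21 and Pdgfra of 0.07. Thy1 had -0.07, Lepr -0.13 and Cxcl12 -0.47, with every Ni library below every control for Cxcl12. Of all 10 stromal markers, 7 were positive and 3 negative. Macrophage markers were also abundant, at 24700 to 29900 CPM in control and 25100 to 25900 CPM in Ni. Lyz2 (log2 fold change 0.02) was the largest part of that sum. Of the 12 macrophage markers, 4 were positive and 8 negative. The osteoclast list summed to 657 to 1340 CPM in control and 610 to 686 CPM in Ni, mostly from Acp5 (log2 fold change -0.9). Calcr, Ocstamp, Dcstamp and Oscar of that list did not pass the filter on low counts. Of its 4 genes tested, 2 were positive, among them Ctsk at 0.62, and 2 negative. The endothelial list summed to 52.0 to 74.6 CPM in control and 46.0 to 49.6 CPM in Ni, and the adipocyte list to 57.6 to 79.2 and 71.5 to 88.8 CPM. The lymphoid list summed to 36.8 to 77.2 CPM in control and 36.8 to 48.0 CPM in Ni with Ms4a1, Cd3e and Cd3d at 0. The neutrophil list reached at most 3.24 CPM with S100a9, Ltf and Ngp at 0, and the erythroid list at most 0.543 CPM with Hbb-bs, Hbb-bt, Hba-a1 and Hba-a2 at 0.

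Per length of gene, the most abundant of the 52 was Ccnd1, a D-type cyclin, with a mean level of 72.9 FPKM (counts scaled to gene length and library size) over the 6 libraries. Pcna (the sliding clamp of DNA polymerase) followed at 52.1 FPKM, then Cdk4 at 47.2 FPKM and Ccnd2 at 26.7 FPKM. The FPKM of Ccnd1 was 2.73 times that of Ccnd2, and that of Cdk4 was 11.6 times that of its relative Cdk6. The lowest level was that of E2f7, a repressor of E2F targets, at 0.351 FPKM. The median level was 5.26 FPKM over the G1 to S genes, 7.99 FPKM over the replication genes and 4.25 FPKM over the mitosis genes.

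**Figure D1:**
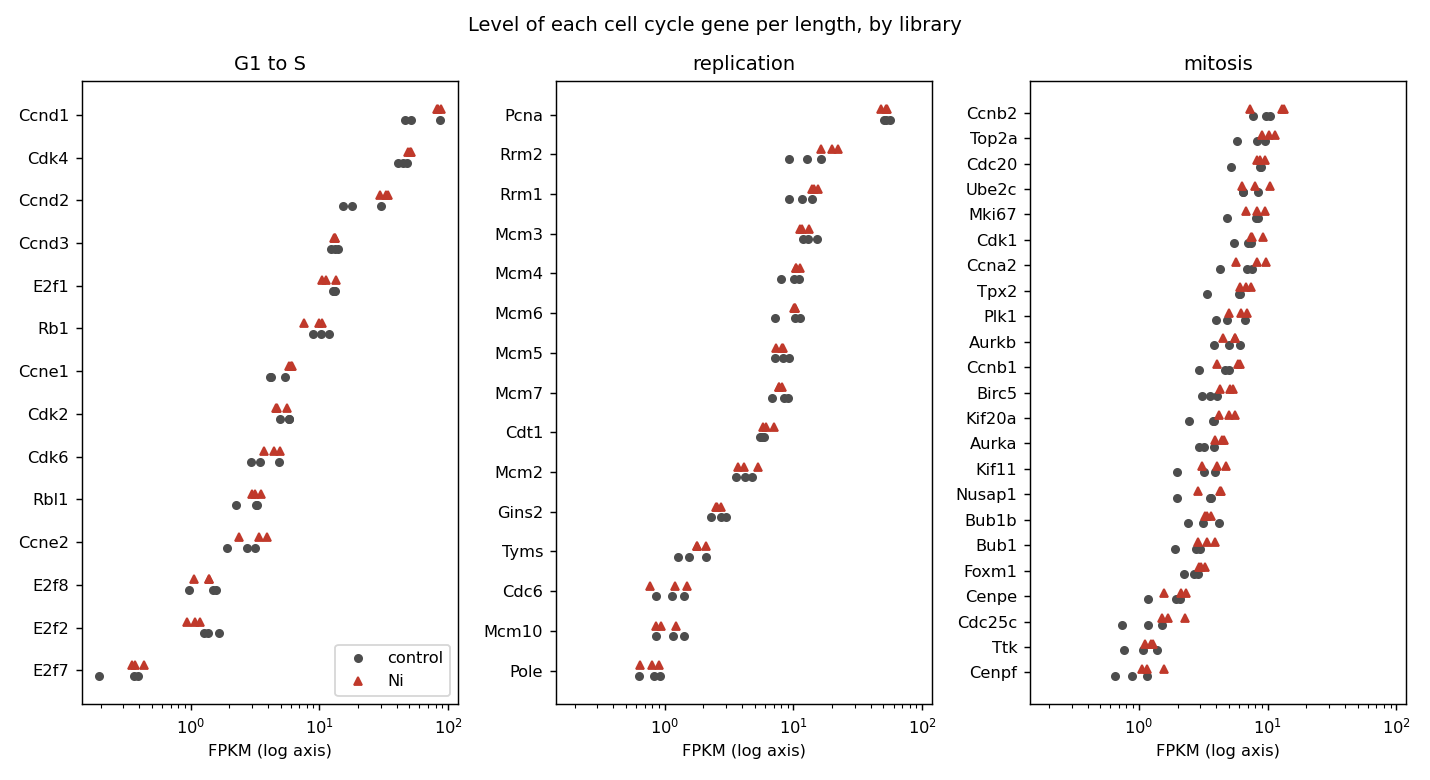
Level of each of the 52 genes in FPKM (log axis), with 3 control libraries (circles) and 3 Ni libraries (triangles) per gene, ordered by mean level within each class. Ccnd1 (72.9 FPKM) and Pcna (52.1 FPKM) lead, and in most genes the symbols of both groups lie among each other.

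None of the 52 genes differed between Ni and control at an adjusted p under 0.05 in edgeR's quasi-likelihood test after adjusting over 14624 genes by Benjamini-Hochberg, nor did any other gene (0 of 14624, a background of 0%). DESeq2 and limma on log2 FPKM likewise called 0 of the 52, while DESeq2 called 1.94% of the genes it tested. The lowest adjusted p among the 52 was 0.308, for Birc5. At an unadjusted p under 0.05, edgeR gave 7 of the 52 (13.5%), against 13.4% of all genes. All 7 were higher in Ni, a direction that 7.59% of all genes took at that p, while 5.83% of all genes were lower. These were Ccnd2, Ccne1, Rrm1, Rrm2, Kif20a, Birc5 and Aurka. The groups did not overlap in 8 of the 52 (15.4%), against 14.7% of all genes. Of these, Ccne1, Cdk4, Rrm2, Aurka, Birc5, Kif20a and Foxm1 were higher in Ni, as were 7.97% of all genes, and E2f2 was lower, as were 6.71%. Both shares were thus near the background. The log2 fold change (Ni over control) was above 0 in 39 of the 52 (75.0%), against 48.1% of all genes, and its median was 0.21 against -0.01 for all genes. Without control 2, 31 of the 52 were above 0 and the median was 0.05. The classes and the libraries are therefore described separately.

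**Figure D2:**
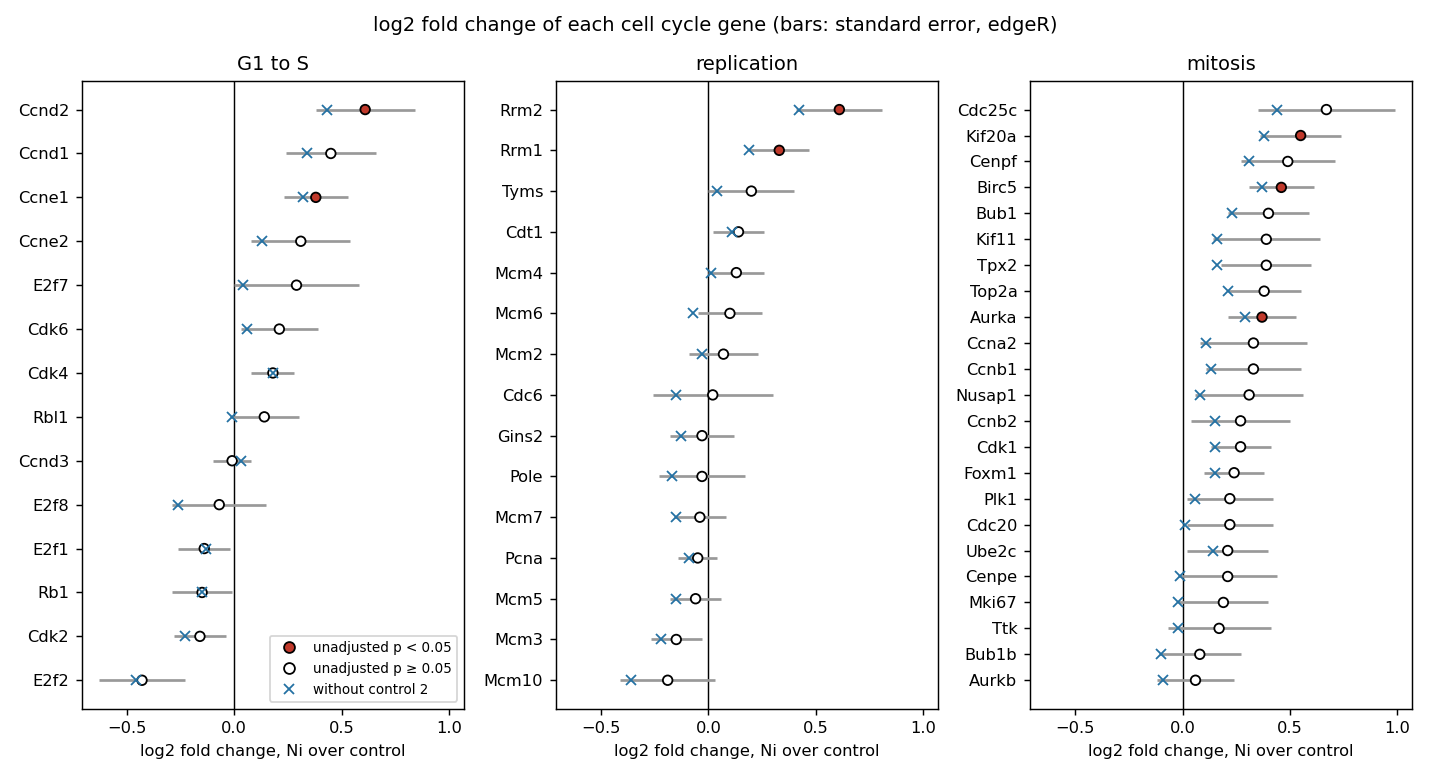
log2 fold change (Ni over control) of each gene with its standard error as a bar (edgeR, 3 libraries per group), filled where the unadjusted p was under 0.05, and with a cross for the value without control 2. All 23 mitosis genes lie right of 0 with every library in, and 18 of them do so without control 2.

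In the G1 to S class, the cyclins Ccnd2, Ccnd1, Ccne1 and Ccne2 had the largest positive differences and E2f2 the largest negative one, none of them past the adjusted threshold. Of its 14 genes, 8 were positive and 6 negative, with a median log2 fold change of 0.16. An unadjusted p under 0.05 by edgeR was reached by 2 (14.3%), against 13.4% of all genes in either direction. Both were higher in Ni, as were 7.59% of all genes at that p. Ccnd1 (chromosome 7, from 144929931 to 144939925, minus strand) measured 221, 244 and 410 CPM in the controls and 394, 419 and 385 CPM in Ni. The third control lay among the Ni libraries, so the groups overlapped, and the log2 fold change was 0.45 ± 0.21 (SE, edgeR adjusted p = 0.394). Of its exon bases, 23.4% also belong to Oraov1 on the other strand, and the strand setting of the counting is not given in the sources used here.

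Ccnd2, the second D-type cyclin (chromosome 6, from 127125162 to 127152193, minus strand), gave 170, 145 and 286 CPM in control and 312, 282 and 325 CPM in Ni. Control 3 again stood with the Ni libraries, above Ni 2. The log2 fold change was 0.61 ± 0.23 (SE, edgeR adjusted p = 0.341). The remaining D-type cyclin, Ccnd3, was level at 117 ± 7.26 CPM in control and 116 ± 1.77 CPM in Ni (SD, n = 3), with a log2 fold change of -0.01 ± 0.09 (SE).

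Ccne1, the cyclin that activates Cdk2 at the start of S phase, gave 11, 11.2 and 14.6 CPM in control and 16.1, 15.5 and 16.4 CPM in Ni. All Ni libraries were above all controls, by a log2 fold change of 0.38 ± 0.15 (SE, edgeR adjusted p = 0.340). Cdk4, the partner of the D-type cyclins, gave 133, 145 and 157 CPM in control and 167, 166 and 159 CPM in Ni. These groups also did not overlap, though Ni 3 and control 3 were next to each other, and the log2 fold change was 0.18 ± 0.10 (SE, edgeR adjusted p = 0.444). E2f2, an activator of S-phase genes, ran the other way, with 6.23, 6.74 and 8.22 CPM in control and 5.75, 5.35 and 4.64 CPM in Ni. It was the one gene of the 52 with every Ni library below every control, by a log2 fold change of -0.43 ± 0.20 (SE, edgeR adjusted p = 0.377). E2f1 (-0.14), E2f8 (-0.07), Rb1 (-0.15) and Cdk2 (-0.16) had small negative log2 fold changes, and Rbl1, the p107 relative of Rb1, had 0.14.

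Single libraries decided much of this class. Without control 2 its median log2 fold change was 0.04 and 0 of the 14 genes had an unadjusted p under 0.05 by edgeR, where 5.79% of all genes did. The count was also 0 without Ni 1 (6.6% of all genes) and without Ni 3 (6.96%), and 1 without control 1 (6.27%). The class medians in these fits were 0.16, 0.10 and 0.14, in that order. Without control 3, edgeR called 10 of the 52 genes at an adjusted p under 0.05 (19.2%), all higher in Ni, where 15.2% of all genes passed and 8.69% passed in that direction. In the G1 to S class these were Ccnd1 (log2 fold change 0.79, adjusted p = 0.000228), Ccnd2 (0.97, adjusted p = 0.000145), Ccne1 (0.53, adjusted p = 0.0254) and Cdk6 (0.45, adjusted p = 0.0337), by edgeR with Benjamini-Hochberg adjustment. Over all genes, calls at that threshold rose from 0 to 2283 when control 3, picked for its nearness to Ni, was left out. Control 3 was also the control with the highest osteoblast marker level, and the part of that in the cyclin values was not tested. In bulk RNA, a different share of cells of a type and a different amount of a transcript per cell cannot be told apart.

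**Figure D3:**
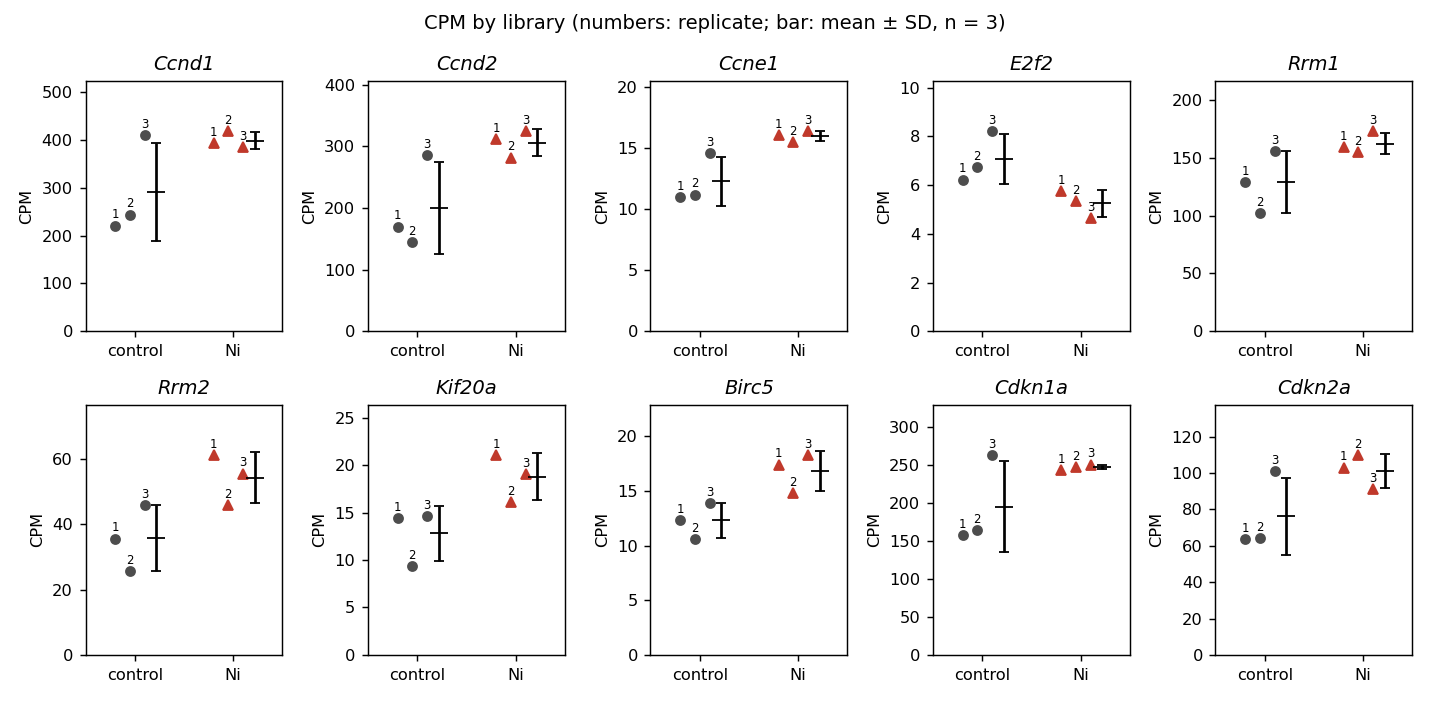
CPM by library for 10 genes, with the replicate number at each symbol and the mean ± SD (n = 3) as a bar; every axis starts at 0. For Ccnd1, Ccnd2, Cdkn1a and Cdkn2a control 3 lies at the level of the Ni libraries, whereas for Ccne1, Rrm2, Kif20a and Birc5 all Ni libraries are above all controls and for E2f2 all are below.

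The CDK inhibitors oppose these cyclins. Of the 7 genes, 5 were positive and 2 negative, with a median log2 fold change of 0.25, and none had an adjusted p under 0.05 by edgeR. Cdkn1a, the p21 inhibitor that p53 induces, gave 157, 164 and 263 CPM in control and 243, 247 and 250 CPM in Ni. Control 3 exceeded every Ni library, and the log2 fold change was 0.34 ± 0.18 (SE, edgeR adjusted p = 0.438). Cdkn2a, which encodes the Ink4a inhibitor of Cdk4 and Cdk6 as well as Arf, gave 63.5, 64.1 and 101 CPM in control and 103, 110 and 91.3 CPM in Ni. Its groups overlapped through control 3, and its log2 fold change was 0.41 ± 0.18 (SE, edgeR adjusted p = 0.367), the single CDK inhibitor at an unadjusted p under 0.05.

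The other Ink4 family members had like differences. Cdkn2b gave 39.0, 41.6 and 55.2 CPM in control and 48.7, 61.3 and 49.6 CPM in Ni, a log2 fold change of 0.23 ± 0.15 (SE). Cdkn2c gave 30.8, 22.8 and 29.5 CPM in control and 34.5, 32.3 and 33.1 CPM in Ni, a log2 fold change of 0.26 ± 0.13 (SE), and was the one inhibitor whose groups did not overlap. Cdkn2d gave 18, 16.7 and 22.9 CPM in control and 23.6, 23.3 and 21.9 CPM in Ni, a log2 fold change of 0.25 ± 0.14 (SE). The 2 negative inhibitors were of the Cip/Kip family. Cdkn1b (p27) gave 96.4, 106 and 76.3 CPM in control and 84.2, 81.8 and 85.3 CPM in Ni, a log2 fold change of -0.15 ± 0.12 (SE). Cdkn1c (p57) was near the limit of detection, with 1.64, 1.26 and 1.38 CPM in control and 0.760, 2.24 and 0.939 CPM in Ni, and its difference of -0.13 ± 0.45 (SE, log2) was within its error. Without control 3, edgeR called 4 of the 7 at an adjusted p under 0.05, namely Cdkn1a (0.62, adjusted p = 0.000477), Cdkn2a (0.67, adjusted p = 0.000979), Cdkn2b (0.41, adjusted p = 0.0445) and Cdkn2d (0.40, adjusted p = 0.0470), where 15.2% of all genes passed and 8.69% passed as higher. Without control 2 the median of the 7 was 0.16 and 0 of them had an unadjusted p under 0.05 by edgeR. Per length, Cdkn2a (75.1 FPKM) and Cdkn1a (61.7 FPKM) lay beside Ccnd1 (72.9 FPKM).

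The replication genes were divided in sign, and those of ribonucleotide reductase had the largest differences. Of the 15 genes, 8 were positive and 7 negative, with a median log2 fold change of 0.02. The subunits of the Mcm helicase, which opens DNA at origins, lay between -0.15 (Mcm3) and 0.13 (Mcm4), with Mcm2 at 0.07, Mcm5 at -0.06, Mcm6 at 0.10 and Mcm7 at -0.04. Pcna gave 135, 122 and 127 CPM in control and 128, 117 and 126 CPM in Ni, a log2 fold change of -0.05 ± 0.09 (SE, edgeR adjusted p = 0.834). Mcm10 (-0.19), Cdc6 (0.02), Cdt1 (0.14), Gins2 (-0.03) and Pole (-0.03), which load or run the replication fork, had log2 fold changes close to or under their standard errors, which ran from 0.12 (Cdt1) to 0.28 (Cdc6). Gins2 shares 67.3% of its exon bases with Gse1 on the other strand (log2 fold change of Gse1, 0.13), so its count is uncertain.

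Rrm2, the regulated subunit of ribonucleotide reductase, which makes deoxynucleotides, had the largest difference of the class. It gave 35.6, 25.6 and 45.8 CPM in control and 61.3, 46.0 and 55.5 CPM in Ni. The groups did not overlap, but Ni 2 exceeded control 3 by a very small margin, and the log2 fold change was 0.61 ± 0.20 (SE, edgeR adjusted p = 0.309). Rrm1, the large subunit, gave 129, 102 and 156 CPM in control and 159, 155 and 173 CPM in Ni, a log2 fold change of 0.33 ± 0.14 (SE, edgeR adjusted p = 0.366), with control 3 just above Ni 2. Tyms, the thymidylate synthase, gave 9.45, 7.75 and 12.9 CPM in control and 10.9, 12.8 and 10.8 CPM in Ni, with control 3 the highest of all and a log2 fold change of 0.20 ± 0.20 (SE). Without control 3, Rrm1 (0.49, adjusted p = 0.00931) and Rrm2 (0.83, adjusted p = 0.00350) were the replication genes that edgeR called at an adjusted p under 0.05. They were 13.3% of the class, where 15.2% of all genes passed and 8.69% passed as higher. In 8 of the 15 genes control 3 exceeded every Ni library, and in 12 of the 15 control 2 was the lowest library of all.

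In the mitosis class every one of the 23 genes had a positive log2 fold change, from 0.06 (Aurkb) to 0.67 (Cdc25c), with a median of 0.31. None had an adjusted p under 0.05 by edgeR, and 3 (13%) had an unadjusted p under 0.05, against 13.4% of all genes in either direction. All 3 were higher in Ni, as were 7.59% of all genes at that p. Birc5 (survivin, of the chromosomal passenger complex, on chromosome 11, from 117849251 to 117855743, plus strand) gave 12.3, 10.6 and 13.9 CPM in control and 17.4, 14.8 and 18.3 CPM in Ni. All Ni libraries were above all controls, by a log2 fold change of 0.46 ± 0.15 (SE, edgeR adjusted p = 0.308). Kif20a, a kinesin needed for cytokinesis, gave 14.4, 9.38 and 14.6 CPM in control and 21.1, 16.1 and 19.1 CPM in Ni. Its groups were also apart, by a log2 fold change of 0.55 ± 0.19 (SE, edgeR adjusted p = 0.309), and 29.3% of its exon bases belong also to Cdc23 on the other strand (log2 fold change of Cdc23, 0.16).

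Aurka, the kinase of the spindle poles, gave 8.20, 7.49 and 9.78 CPM in control and 11.6, 9.90 and 11.3 CPM in Ni, a log2 fold change of 0.37 ± 0.16 (SE, edgeR adjusted p = 0.371). Its groups were apart by the small step from control 3 to Ni 2. Cdc25c, the phosphatase that activates Cdk1, was measured on few reads, at 2.29, 1.45 and 2.94 CPM in control and 3.26, 2.94 and 4.47 CPM in Ni, and its log2 fold change of 0.67 ± 0.32 (SE, edgeR adjusted p = 0.384) had the largest error of the 52. Cenpf, a kinetochore protein, gave 13.7, 10.1 and 17.9 CPM in control and 18, 16.4 and 24.3 CPM in Ni, a log2 fold change of 0.49 ± 0.22 (SE, edgeR adjusted p = 0.376). In both of these genes control 3 reached or exceeded the lowest Ni library.

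The most abundant mitosis genes per length were Ccnb2, Top2a and Cdc20. Ccnb2, a B-type cyclin, gave 16, 11.8 and 15 CPM in control and 19.8, 11.2 and 20.5 CPM in Ni, so that Ni 2 was the lowest library of all and the log2 fold change was 0.27 ± 0.23 (SE). Top2a gave 75.7, 52.8 and 86.3 CPM in control and 93.5, 82.4 and 104 CPM in Ni, with Ni 2 under control 3 and a log2 fold change of 0.38 ± 0.17 (SE, edgeR adjusted p = 0.376). Cdc20, the activator of the anaphase-promoting complex, gave 16.7, 9.70 and 16.4 CPM in control and 16.4, 15.5 and 18 CPM in Ni, and control 2 alone was low, with a log2 fold change of 0.22 ± 0.20 (SE). Mki67, widely used to mark dividing cells, was also lowest in control 2, with 85.1, 49.2 and 82.8 CPM in control and 82.8, 69.0 and 96.2 CPM in Ni and a log2 fold change of 0.19 ± 0.21 (SE). The mitosis genes with CHR letters in their window had a median log2 fold change of 0.24 (12 genes) and those without had 0.33 (5 genes).

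Control 2 was the lowest of the 6 libraries in 21 of the 23 mitosis genes (91.3%, against 22% of all genes tested), and Ni 3 was the highest in 16 (69.6%, against 17.0%). The mean of the 23 genes, as log2 CPM relative to the mean of all libraries, was 0.02, -0.56 and 0.05 in the controls and 0.20, -0.05 and 0.35 in Ni. Controls 1 and 3 were thus both above Ni 2, the groups overlapped, and the level was -0.16 ± 0.34 in control and 0.16 ± 0.20 in Ni (SD, n = 3). From control 2 to Ni 3 the span was 0.91 on the log2 scale, or 1.88-fold. The CPM in Ni 2 was below that in control 1 for 13 of the 23 genes and below that in control 3 for 14. Without control 2 the median log2 fold change of the class was 0.15, with 18 of the 23 genes positive and Birc5 and Kif20a alone in the class at an unadjusted p under 0.05, where 5.79% of all genes were. Without control 3 the median was 0.41, and edgeR called Top2a (0.54, adjusted p = 0.0326), Birc5 (0.56, adjusted p = 0.0307), Cenpf (0.72, adjusted p = 0.0268) and Kif20a (0.66, adjusted p = 0.0345) at an adjusted p under 0.05. These were 17.4% of the class, where 15.2% of all genes passed and 8.69% passed as higher.

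**Figure D4:**
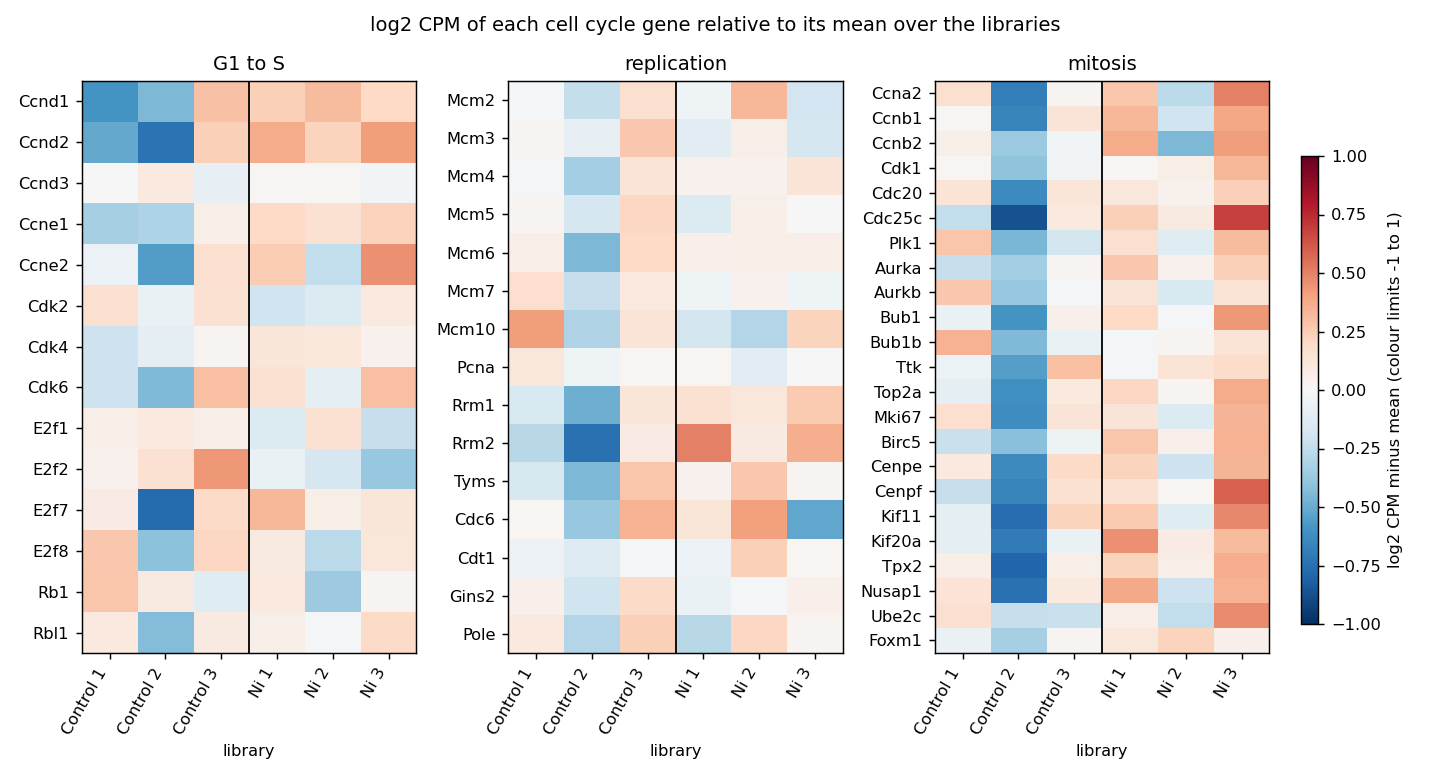
log2 CPM of each gene in each library relative to the mean of that gene over the 6 libraries, on a color scale from -1 to 1, with a line between control and Ni. The column of control 2 is blue through the mitosis class, lowest in 21 of 23 genes, and that of Ni 3 is the reddest, highest in 16 of 23, while Ccnd1 and Ccnd2 are blue in controls 1 and 2.

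By mean level, the other classes also had control 2 the lowest, but control 3 the highest. The G1 to S level was -0.07, -0.27 and 0.14 in the controls and 0.11, -0.02 and 0.11 in Ni, with control 3 the highest and control 2 the lowest. The replication level was 0.02, -0.30 and 0.16 in the controls and 0.00, 0.10 and 0.02 in Ni, again with control 3 the highest and control 2 the lowest. Gene by gene, control 3 was the highest in 7 of the 15 replication genes (46.7%, against 13% of all genes tested). It was the highest in only 1 of the 14 G1 to S genes (7.14%). Ni 3 was the highest in 5 of those 14 (35.7%, against 17% of all genes tested), more than any other library. The median spread of a gene within its group (SD of log2 CPM) was 0.22 in the G1 to S class, 0.22 in the replication class and 0.31 in the mitosis class, against 0.19 over all genes tested. Control 2 was also the control with the lowest osteoblast marker level (-0.95, against -0.86 in control 1 and -0.03 in control 3, and 0.79, 0.19 and 0.85 in Ni), and the macrophage marker level was 0.03, 0.11 and 0.07 in the controls and -0.07, -0.02 and -0.12 in Ni. Their part in the mitosis levels was not tested.

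**Figure D5:**
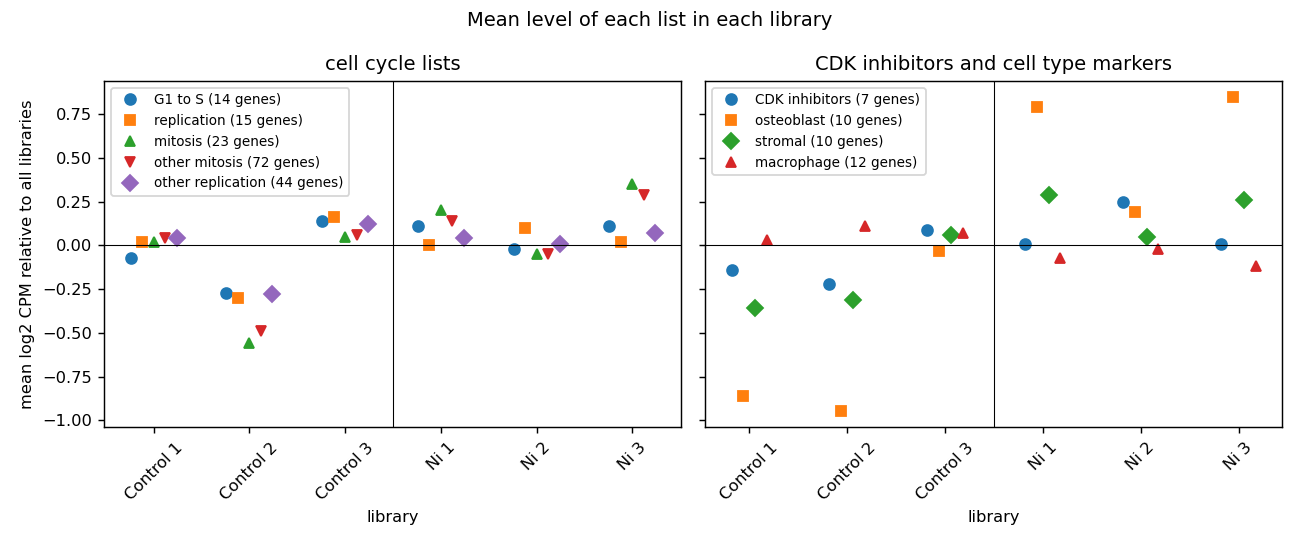
Mean level of each gene list in each library, as log2 CPM relative to the mean over all libraries, for the cell cycle lists (left) and for CDK inhibitors and cell type markers (right); one symbol is one list in one library. The mitosis list is lowest in control 2 (-0.56) and highest in Ni 3 (0.35), and osteoblast markers run from -0.95 in control 2 to 0.85 in Ni 3.

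Further genes of the pathway, in 6 lists of 165 genes, were read from the same test. Of these 164 were tested, Fen1 falling to the filter, and 10 (6.10%, against 13.4% of all genes) had an unadjusted p under 0.05 (9 higher and 1 lower in Ni) and none an adjusted p under 0.05 by edgeR. Of the 72 other mitosis genes, 64 (88.9%) were positive, the sign of all 23, with a median log2 fold change of 0.19. At an unadjusted p under 0.05 by edgeR were 6 (8.33%, against 13.4% of all genes in either direction). All 6 were higher in Ni, as were 7.59% of all genes at that p. The level of the 72 over the libraries was 0.04, -0.49 and 0.06 in control and 0.14, -0.05 and 0.29 in Ni, and without control 2 their median was 0.05. Among them, Spc25, of the Ndc80 kinetochore complex, gave 6.45, 3.84 and 8.46 CPM in control and 13.4, 9.61 and 11.5 CPM in Ni, a log2 fold change of 0.88 ± 0.26 (SE, edgeR adjusted p = 0.294). Ckap2, a spindle microtubule protein, gave 11.4, 8.50 and 17.4 CPM in control and 20.1, 18.1 and 25.9 CPM in Ni, a log2 fold change of 0.78 ± 0.25 (SE, edgeR adjusted p = 0.306). In Spc25 and Ckap2 every Ni library was above every control. Ncapg, a condensin subunit, gave 9.84, 6.87 and 7.74 CPM in control and 13.9, 8.58 and 14.4 CPM in Ni, with Ni 2 under control 1 and a log2 fold change of 0.59 ± 0.23 (SE). Kif18b, a kinesin, gave 4.54, 3.15 and 5.16 CPM in control and 6.24, 5.30 and 7.62 CPM in Ni, a log2 fold change of 0.57 ± 0.24 (SE). Cdc25b, a phosphatase that activates Cdk1, gave 17.8, 14.5 and 23.9 CPM in control and 25, 24.3 and 26.6 CPM in Ni, a log2 fold change of 0.43 ± 0.17 (SE). In Kif18b and Cdc25b the groups did not overlap.

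The 44 other replication genes tested had a median log2 fold change of 0.03, and none reached an unadjusted p under 0.05. The 16 genes of the anaphase-promoting complex, which marks cyclins for destruction, had a median of 0.01 and likewise none at an unadjusted p under 0.05. The 13 DREAM complex and other E2F genes had a median of 0.02, with 1 at an unadjusted p under 0.05. This was Tfdp2, a partner of E2F factors, with 14.6, 16.2 and 17.1 CPM in control and 21.3, 17 and 20.9 CPM in Ni, where control 3 was just above Ni 2 (log2 fold change 0.31 ± 0.14, SE). The 12 p53 and arrest genes also had a median of 0.02. Within this list Eda2r, a p53-induced receptor, gave 13, 10.2 and 16.8 CPM in control and 22.2, 15.8 and 22.4 CPM in Ni (log2 fold change 0.59 ± 0.20, SE). Plk2, a p53-induced kinase, gave 43.6, 44.8 and 46.5 CPM in control and 34.6, 42.4 and 37.0 CPM in Ni, with every Ni library below every control (log2 fold change -0.24 ± 0.11, SE).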

How the data were processed

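The authors deposited whole-number read counts per gene, without normalization, for 54532 genes in 6 libraries, and FPKM values of the same genes. Each deposited FPKM value is the count over the gene's length and a library factor (largest relative deviation 3.29e-07). Libraries were made with the NEBNext Ultra RNA kit; the submitters' processing notes name the build GRCm38, and the aligner, counter and strand setting are not given in the sources used here. Counts were filtered (filterByExpr, leaving 14624 genes), scaled by TMM, and compared by the quasi-likelihood test of edgeR 4.0.16 (R 4.3.3; prior count 0.125) with Benjamini-Hochberg adjustment over all genes tested, without covariates. Standard errors were the unshrunk coefficient over the root of F. CPM are TMM-normalized, and levels are log2 CPM with a prior count of 2. DESeq2 1.42.0 and limma 3.58.1, on log2(FPKM + 1) and log2(FPKM + 0.1), were alternatives. Totals ran from 16101033 to 18642504 counts. With 3 libraries against 3, the smallest exact two-sided permutation p is 0.1. Chi-square per degree of freedom within groups was 4.37 to 43.6, so no library was a duplicate. Of the gene IDs, 54495 are in GENCODE M21, used for exon overlaps, which are named where over 20%. Gene coordinates are those of the authors' gene annotation. The script was tested on simulated counts.

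The members and lists were chosen with earlier results of these data known. Library values are given for the 3 most abundant genes of a class by FPKM, the 3 with the largest change among genes averaging at least 50 counts, those at an unadjusted p under 0.05, all CDK inhibitors, and from each other list up to 5 genes at that p; Ccnd3 and Mki67 were added after their values were seen. A marker gene is not reported here.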

Additional observations from a re-analysis of the deposited data

How the results depend on the processing

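The sign of all 23 mitosis genes held in every setting except without control 2, where 18 were positive. Genes at an adjusted p under 0.05 numbered 0 in edgeR, 1027 with no filter on low counts and 264 by DESeq2; genes at an unadjusted p under 0.05 numbered 1963, and 3057 with no filter. With no filter 6 of the 52 genes were called at an adjusted p under 0.05, where 3.97% of all genes were. These 6 were Ccnd1, Ccnd2, Cenpf, Kif20a, Rrm2 and Top2a. At an unadjusted p under 0.05 there were 16 (30.8%, against 11.8% of all genes), 11 of them of mitosis. In the 6 further lists, 7 genes passed the adjusted and 32 the unadjusted threshold. With DESeq2 size factors 5 mitosis genes had an unadjusted p under 0.05, as had 13.4% of all genes. With limma on log2(FPKM + 1) or log2(FPKM + 0.1) 1 replication gene did, as did 12% of all genes. The cause of these shifts was not tested.

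Same-numbered libraries correlated at 0.01, 0.26 and 0.14 in their deviations, and 2 of 3 correlated best with their own number. These values do not settle whether the numbers pair the libraries. With the replicate block, 315 genes (2.15% of all) had an adjusted p under 0.05. With both the block and the removal of the length trend, 256 (1.75%) did. Of the 52 genes this held for 1 (Rrm2, also with both), and of the further lists for 4 (2 with both). At an unadjusted p under 0.05 the block gave 2769 of all 14624 genes (18.9%), 19 of the 52 (36.5%; 18 with both), 4 of G1 to S, 13 of mitosis (13 with both) and 31 of the further lists (29 with both).

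Leaving out 1 library at a time, between 0 and 2283 genes had an adjusted p under 0.05 and between 868 and 4125 an unadjusted one. For the 52 genes the ranges were 0 to 10 and 1 to 19, by class 0 to 5 (G1 to S), 0 to 3 (replication) and 1 to 11 (mitosis), and for the further lists 0 to 16 and 2 to 39. The highest of each came without control 3, where 15.2% of all genes had an adjusted p under 0.05 and 27.4% an unadjusted one. The lowest of the 52 at an unadjusted p, 1 (1.92%), came without Ni 1, where 6.6% of all genes passed. Genes of the 52 whose groups did not overlap numbered 10 (19.2%, without Ni 1, where 20.5% of all genes did not) to 25 (48.1%, without Ni 2, where 35.1% of all genes did not). Medians of the log2 fold change ranged from 0.04 to 0.24 in G1 to S, -0.09 to 0.17 in replication, 0.15 to 0.47 in mitosis and 0.05 to 0.31 over the 52, from 0.16 to 0.40 in CDK inhibitors, 0.05 to 0.33 in other mitosis, -0.04 to 0.07 in other replication, -0.02 to 0.08 in DREAM, 0 to 0.09 in p53 and -0.01 to 0.04 in the anaphase-promoting complex. The share of all genes at an unadjusted p under 0.05 that were higher in Ni was 56.5%, and 69.0% without control 2. Cdkn1c ranged from -0.74 (without Ni 2) to 0.15 and turned positive without Ni 1 (0.15) and without Ni 3 (0.07). In bases before the start only, CHR letters stood in 41.2% of mitosis windows and 16% of all, E2F letters in 1.86% of all and the CCAAT box in 33.8% of all. Among the 52 genes, Cdc25c and E2f7 rest on the fewest reads.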
